A study of Mus musculus with 8 samples.

Results

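Tendons are built in steps that a small number of genes mark. Scx, a basic helix-loop-helix transcription factor, marks tendon progenitors, and Mkx, a homeobox transcription factor, acts in the same lineage and on the collagen that its cells make. Tnmd, a membrane protein of tendon cells, Thbs4, a secreted matrix glycoprotein found at tendons and muscle attachments, and Htra3, a secreted serine protease, are products of the cells that follow. The 5 genes were selected by symbol, with no measured value in the rule, but earlier results of these data were known. The paper names Tnmd and Htra3 as markers of its tenocyte cluster from sorted cells of these stages. It also marks its E16.5 tenocytes by Scx with Tnmd, and its tendon cluster in chromatin data by open regions at Tnmd, Thbs4 and Kera. All 5 genes were found among 28001 listed features. Scx and Mkx are called the regulators here, and Tnmd, Thbs4 and Htra3 the effectors. In GRCm38, Scx lies on chromosome 15 (76457452 to 76459458, plus strand), inside the bounds of Bop1 on the opposite strand, and Mkx on chromosome 18 (6934518 to 7004780, minus strand). Tnmd lies on chromosome X (133850980 to 133865577, plus strand), Thbs4 on chromosome 13 (92751590 to 92794818, minus strand) and Htra3 on chromosome 5 (35652023 to 35679782, minus strand). All 5 are protein-coding.

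Their transcripts were counted in 53085 single cells of 8 mouse forelimb libraries, made with droplet 3′ chemistry in which every captured molecule carries a unique molecular identifier (UMI). All mice were C57BL/6J and homozygous for both a Hic1 CreERT2 allele and a Rosa26 reporter that gives tdTomato after recombination, and the pregnant females had received 7.5 mg tamoxifen at E10. The sorted libraries therefore hold cells in which Hic1, a transcriptional repressor gene, drove the recombinase soon after that oral dose, and the descendants of those cells. Sorted tdTomato+ cells formed 1 library per day from E11.5 to E14.5, a proximal library at E16.5 (upper forearm, elbow and lower upper arm) and a distal library at E16.5 (lower forearm and paw). The other 2 libraries, whole 1 and whole 2, held lineage-negative cells of whole E11.5 limbs, labelled as tdTomato+ and tdTomato- together. Forelimbs of several embryos were pooled per sorted library, so no spread between animals can be had from them.

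After a filter at 3000 UMIs and 10% mitochondrial UMIs, 3165 to 11109 cells were left per library, with a median of 6788 to 18473 UMIs and 31500092 to 234893903 UMIs in all. The reporter was at 427 to 1341 CPM (UMIs of a gene per 1000000 UMIs) in the sorted libraries, against 3.88 and 4.21 CPM in whole 1 and whole 2, so the reporter was nearly missing from the latter. The v2 reagent kit served for the sorted libraries of E11.5 to E13.5 and the v3 kit for the later ones, so the step from E13.5 to E14.5 and the change of kit cannot be told apart. The earlier libraries came from whole forelimbs and the proximal E16.5 library lacks the paw, so stage and region cannot be told apart there either. By the methods, forelimbs were dissociated with Dispase to E12.5 and with Collagenase A and Pronase from E13.5, so the step between these stages and the change of enzyme cannot be told apart. Any pair of libraries shared 0 to 54 cell barcodes, at most 1.08% of either. Intervals are 95% and cover only the error of counting. Since every stage and segment is a lone library, differences among them were not tested.

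The promoters of the 3 effectors, the genes that were higher together at late stages, follow from 250 bases before to 50 bases after the RefSeq start (GRCm38.p6), on the strand of the gene. Capitals mark the E-box CANNTG, the core that basic helix-loop-helix factors such as Scx bind, which reads the same on both strands. The Tnmd window is chrX:133850758-133851057 on the plus strand, the Thbs4 window chr13:92794769-92795068 and the Htra3 window chr5:35679731-35680030, both on the minus strand.
Tnmd: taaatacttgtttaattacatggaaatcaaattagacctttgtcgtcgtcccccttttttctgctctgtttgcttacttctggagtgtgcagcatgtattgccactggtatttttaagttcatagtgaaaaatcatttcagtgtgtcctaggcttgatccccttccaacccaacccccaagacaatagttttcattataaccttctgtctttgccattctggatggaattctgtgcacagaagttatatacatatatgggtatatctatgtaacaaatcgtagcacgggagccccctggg
Thbs4: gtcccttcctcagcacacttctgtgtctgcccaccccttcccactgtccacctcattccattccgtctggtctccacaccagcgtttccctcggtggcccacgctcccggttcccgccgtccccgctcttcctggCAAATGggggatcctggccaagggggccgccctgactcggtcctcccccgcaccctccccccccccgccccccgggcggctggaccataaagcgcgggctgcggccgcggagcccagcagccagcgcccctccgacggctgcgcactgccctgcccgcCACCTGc
Htra3: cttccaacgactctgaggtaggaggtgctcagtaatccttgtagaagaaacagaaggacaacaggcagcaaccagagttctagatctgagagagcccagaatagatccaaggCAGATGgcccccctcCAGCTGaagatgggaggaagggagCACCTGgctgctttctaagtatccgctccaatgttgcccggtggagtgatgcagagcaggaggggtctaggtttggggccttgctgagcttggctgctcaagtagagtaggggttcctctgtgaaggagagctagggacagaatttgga
The Thbs4 window holds 2 such motifs, one that starts 115 bases before the transcription start and one at base 44 after it. The Htra3 window holds 3, which start 138, 123 and 99 bases before it. In the Tnmd window these letters do not occur. Of 32851 mouse promoter windows of the same length, 72.3% held at least 1 CANNTG and 39.6% at least 2, so the matches in Thbs4 and Htra3 describe common letters. RefSeq windows were at hand for 3 of the 5 genes, and Scx and Mkx are named only.

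The first comparison asked which of the 5 genes differ between sorted Hic1-descended cells and whole limb cells at E11.5. The paper reports tdTomato+ cells mostly in the proximal forelimb at this stage, so lineage and position cannot be told apart here. Cells with 3 or more mitotic markers were 33.2% of the sorted library and 49.9 and 48.9% of whole 1 and whole 2. All 5 were higher in the sorted library than in both whole limb libraries (edgeR quasi-likelihood test, Benjamini-Hochberg adjusted, two-sided, 1 library against 2). Of 15243 genes tested, 26.7% were called higher and 26.4% lower, so a call by itself is common here and the size of the difference carries more. Scx was at 182 CPM in the sorted library and at 46.9 and 44.9 CPM in whole 1 and whole 2, a log2 difference of 1.81 ± 0.09 (SE), with adjusted p = 1.5e-90. Mkx was at 39.2 against 7.88 and 8.13 CPM, a log2 difference of 2.11 ± 0.12, with adjusted p = 2.1e-61 (edgeR). Both regulators were already well counted at this stage, with 5718 and 1231 UMIs in the sorted library, and the 2 whole limb libraries lay close together.

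The effectors were scarce at E11.5 but showed the same direction. Htra3 was at 4.52 CPM (142 UMIs) in the sorted library and at 0.320 and 0.419 CPM (16 and 21 UMIs) in the whole limb libraries, a log2 difference of 3.42 ± 0.29, with adjusted p = 1.5e-30 (edgeR). Tnmd was at 1.27 CPM from 40 UMIs, against 0.200 and 0.159 CPM from 10 and 8 UMIs, a log2 difference of 2.63 ± 0.47 with adjusted p = 1.7e-07 (edgeR). Thbs4 was at 1.27 CPM from 40 UMIs, against 0.620 and 0.399 CPM from 31 and 20 UMIs, a log2 difference of 1.14 ± 0.38 with adjusted p = 0.00681 (edgeR). Thbs4 was the least certain of the 5, since DESeq2 gave it adjusted p = 0.279 and edgeR without a filter on low counts gave 0.0896, while the other 4 genes kept their call by these and by limma-voom. The lone sorted library was assumed to vary like the whole limb pair, and nothing in the labels says that the pair came from separate litters. These p-values therefore rest on the spread within the whole limb pair, pooled over genes. Without the filter on low counts edgeR gave larger adjusted p-values for all 5 genes, so little should be read from their size.

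Other tendon genes were examined at E11.5 in the same fit. Of 23 tested tendon matrix genes, 18 were higher and 1, Col5a2, was lower in the sorted library, with a median log2 difference of 1.22 against 0.01 over all genes tested. Fmod, a collagen-binding proteoglycan, was at 7.86 against 0.280 and 0.219 CPM, a 27.6-fold difference. Of 19 tested genes of the TGFβ, FGF and BMP signals that act on tendon progenitors, 12 were higher, among them Spry2, an FGF feedback inhibitor, at 157 against 40.7 and 33.3 CPM, and Nog and Gdf6 were lower. Of 11 other transcription regulators linked to tendon, 6 were higher and 4 lower (Eya1, Six2, Tcf3 and Tcf12), with Eya2 higher at 11.5 against 2.74 and 2.87 CPM and Eya1 lower at 0.541 against 5.70 and 6.04 CPM. Of 7 tested paralogs of the effectors (other thrombospondins, Htra proteases and Lect1, the closest relative of Tnmd), Thbs1, Comp and Lect1 were higher and none was lower.

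The second comparison concerned the order in which the 5 genes appear. In the first library, E11.5, Scx was at 99.4% of its highest level and Mkx at 54.6% of its own. Thbs4, Htra3 and Tnmd were at 1.28, 6.86 and 0.418% of theirs. From E11.5 to E16.5 proximal, 3 of the 5 genes were higher by 2-fold or more (the effectors) and 2 were lower by 2-fold or more (the regulators). Over all 10903 genes that reached 5 CPM in one of the pair, 13.8% were higher and 28.0% lower by that much, on the ratio of CPM + 1. This direction was the same with the distal E16.5 library in place of the proximal one.

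Scx was at 182, 183, 160, 115 and 49.6 CPM from E11.5 to E16.5 proximal, and at 63.9 CPM in the distal library. Its level at E16.5 proximal was 0.273 of that at E11.5 (0.264 to 0.281). The E11.5 and E12.5 intervals overlapped (177 to 187 and 179 to 187 CPM), and each later library of the time course was lower than the one before it. The share of cells with a Scx UMI, with every cell thinned to 3000 UMIs, followed at 37.9, 37.6, 29.3, 17.2, 9.52 and, in the distal library, 9.49%. Both whole limb libraries had fewer such cells, at 12.8 and 12.2%.

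Mkx was at 39.1, 43.4, 71.6, 24.2 and 9.49 CPM over the same libraries and at 18.1 CPM in the distal one. Its highest library was E13.5, in the middle of the series. Its share of cells at equal depth was 9.86% at E11.5, 16.7% at E13.5, 6.50% at E14.5, 2.78% proximally and 4.88% distally, in the same order as the CPM. The drop after E13.5, to 0.338 of the level (0.322 to 0.355), spans the change of kit.

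Htra3 was at 4.54, 10.5, 26.6, 64.3 and 66.1 CPM, and at 55.4 CPM in the distal library. Among the effectors it stood nearest to its highest level at E11.5, at 6.86% of that maximum, was at 15.9% by E12.5 and at 97.2% by E14.5. The share of cells continued from 10.6% at E14.5 to 16.4% at E16.5 proximal, although the summed level was 1.03 times as high (1.00 to 1.06). At 3000 UMIs per cell the mean over all cells was 0.229 Htra3 UMIs at E16.5 proximal against 0.170 at E14.5, and the mean over positive cells 1.40 against 1.60.

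Thbs4 was at 1.27, 10.1, 39.2, 80.6 and 99.2 CPM, and at 75.9 CPM in the distal library. It made its largest step from E11.5 to E12.5, by 7.94-fold (5.74 to 11.3), which brought it to 10.2% of its highest level. Its share of cells was 0.284, 2.31, 6.58, 9.68, 18.5 and, distally, 9.98%. From E14.5 to E16.5 proximal the summed level was 1.23 times as high (1.20 to 1.26), while at 3000 UMIs the mean went from 0.188 to 0.333 Thbs4 UMIs per cell.

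Tnmd was at 1.27, 3.44, 15.0, 216 and 304 CPM, and at 202 CPM in the distal library. It was the last of the 5 to appear, at 1.13% of its maximum at E12.5, 4.95% at E13.5 and 71.0% at E14.5. The step from E13.5 to E14.5 was 14.3-fold (13.3 to 15.5) in level and from 159 of 6123 to 1089 of 8381 cells at equal depth. Over the same step Thbs4 and Htra3 differed by 2.05-fold and 2.42-fold. The kit changed at this step too. Within the v2 kit, from E11.5 to E13.5, Tnmd was already higher from 40 to 683 UMIs. Unthinned single cells held up to 18 of its UMIs at E13.5 against 212 at E14.5, and thinned to 3000 UMIs up to 6 against 34.

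**Figure D1:**
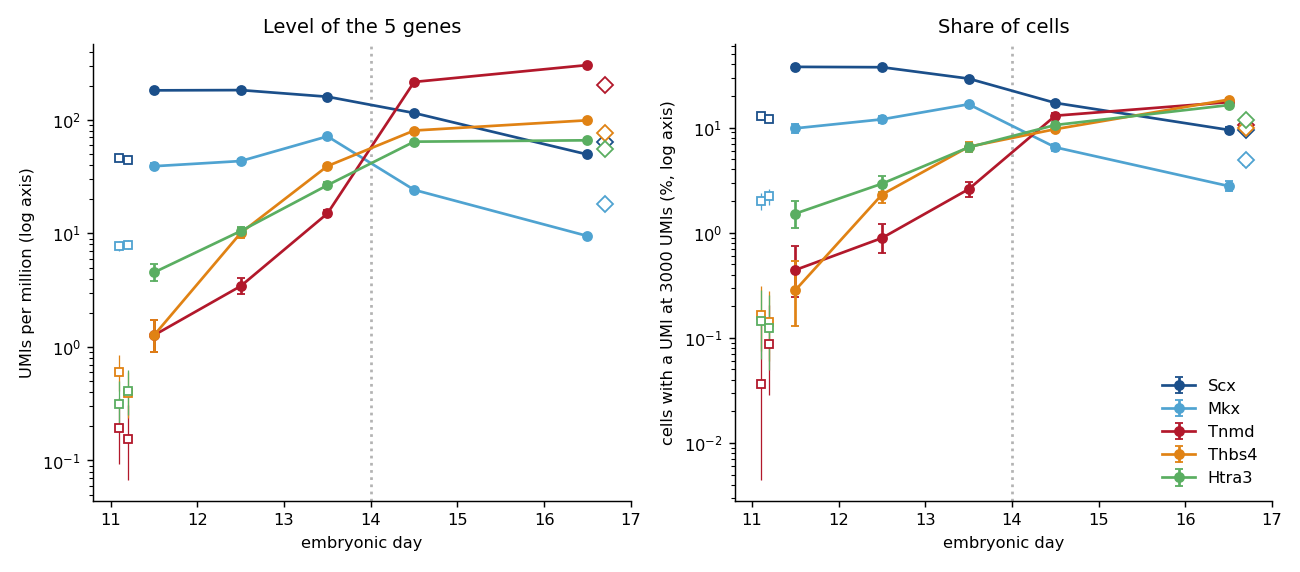
Left, CPM of the 5 genes by embryonic day, and right, percent of cells with a UMI after thinning to 3000 UMIs, both on log axes. Filled circles joined by lines are the sorted time-course libraries, open diamonds beside day 16.5 the E16.5 distal library, open squares left of day 11.5 the 2 whole limb libraries, bars are 95% counting intervals, and the dotted line marks the change of kit between E13.5 and E14.5. Scx and Mkx start high and end low, and Tnmd runs from 1.27 to 304 CPM.

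The calls were then read step by step, first on all UMIs of each library. From E11.5 to E12.5, Thbs4 and Htra3 were higher by 2-fold or more and no member was lower (2.50% and 0.994% of 10259 genes), and Tnmd stayed under 5 CPM. From E12.5 to E13.5 all 3 effectors were higher and no member lower (1.80% and 1.63% of 10366 genes). From E13.5 to E14.5 the 3 effectors were higher again and Mkx lower (4.47% and 5.07% of 10522 genes). From E14.5 to E16.5 proximal no member was higher and both regulators were lower (7.09% and 6.46% of 10493 genes), Scx to 0.431 of its level and Mkx to 0.392. Within the v2 kit as a whole, from E11.5 to E13.5, the 3 effectors were higher and no member lower (5.26% and 3.49% of 10454 genes).

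With every cell thinned to 3000 UMIs, so that deep cells weigh no more than shallow ones, some of these calls differed. From E14.5 to E16.5 proximal Tnmd was then higher, at 2.11-fold (2.04 to 2.18), against 1.41-fold on all UMIs (6.37% of 10449 genes were higher). Scx was within 2-fold at this step, at 0.633 of its level (0.597 to 0.671), and Mkx was lower, at 0.426 (6.30% of genes were lower). From E13.5 to E14.5 Thbs4 was within 2-fold, at 1.77-fold (1.62 to 1.94), whereas Tnmd and Htra3 stayed higher and Mkx lower (4.81% and 5.46% of 10543 genes). From E11.5 to E12.5 Htra3 was within 2-fold by the ratio of CPM + 1, at 1.86, while Thbs4 stayed higher and no member was lower (2.57% and 1.20% of 10334 genes). The 3 effectors stayed higher and no member was lower from E12.5 to E13.5 (1.81% and 1.72% of 10416 genes), and the same held from E11.5 to E13.5 (5.16% and 4.06% of 10501 genes).

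The wider tendon lists moved in the same span. Of 25 tested tendon matrix genes, 24 were higher by 2-fold or more at E16.5 proximal than at E11.5 and none lower, with a median log2 ratio of 4.34 against -0.47 over all genes. The largest ratios were those of Postn, a matrix protein of connective tissue (3.30 to 1046 CPM), the fibril-associated collagen Col14a1 (1.21 to 492 CPM), Aspn, a small leucine-rich proteoglycan (1.59 to 557 CPM), and Col6a3 (7.71 to 599 CPM). These genes are not confined to tendon cells. At E16.5 proximal, cells with Scx and Tnmd held Postn at 1863 and Aspn at 1035 CPM, against 907 and 443 CPM in cells with neither. Col14a1 was at 531 against 466 and Col6a3 at 426 against 620 CPM. Of 10 tested regulators, 6 were lower and 1, Six2, was higher (1.94 to 10.3 CPM). Among the lower ones were Egr2 (26.5 to 3.87 CPM), Egr1 (215 to 51.2 CPM) and Tcf3, a partner of basic helix-loop-helix factors (333 to 85.5 CPM). Most of the Egr difference lay between E12.5 and E13.5, where stage and the change of enzyme cannot be told apart. Egr1 was at 206 CPM in the E12.5 library and 42.4 CPM in the next, and Egr2 at 37.3 and 3.83 CPM. Among the inducing signals 10 of 16 were lower, led by the FGF target Dusp6 (189 to 10.2 CPM). Dusp6 was at 177, 59.4 and 9.96 CPM at E12.5, E13.5 and E14.5, so its drop spans the changes of enzyme and of kit. Tgfb1 and the receptor Tgfbr2 were higher (2.76 to 12.2 and 14.2 to 51.3 CPM). Of 7 tested paralogs 6 were higher, the largest being Htra1 (1.05 to 215 CPM) and Thbs2 (1.14 to 145 CPM). The composition of the libraries differed over this span as well: summed epithelial markers went from 55.2 to 6665 CPM, cartilage markers from 348 to 4263 CPM and fibroblast markers from 3.02 to 944 CPM. Without cells carrying 3 or more epithelial or cartilage markers, the log2 ratio of CPM + 1 from E11.5 to E16.5 proximal was -1.77 for Scx, -1.88 for Mkx and 7.24 for Tnmd, against -1.85, -1.93 and 7.07 in all cells.

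Within a library, the way transcripts were spread over cells differed between early and late stages. At E11.5, a Scx UMI was met in cells throughout the library, and the tenth of cells with the most Scx held 44.8% of its UMIs at equal depth. That share was 46.9, 56.8 and 76.4% at E12.5, E13.5 and E14.5. In both E16.5 libraries the tenth held all of them, since fewer than 1 cell in 10 had any. The mean in positive cells went the other way to the overall level, from 1.46 UMIs at E11.5 to 2.02 at E16.5 proximal. The variance of Scx over cells was 1.31, 1.42, 1.76, 2.50 and 2.89 times its mean over the time course, where counts drawn at random would give 1. From E14.5 on Tnmd was the most unequal of the 5, its variance being 8.34 times its mean at E14.5 and 14.8 times at E16.5 proximal, where a thinned cell held up to 62 of its UMIs and an unthinned cell up to 360. In earlier libraries it was not, with Tnmd at 2.10 and Thbs4 at 2.30 times the mean at E13.5. Scx was thus lower on average at E16.5 and concentrated in fewer cells, which held slightly more of it on average.

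The third comparison asked whether the 5 genes are found in the same cells. At E11.5 the regulators were spread almost independently. Scx and Mkx were met together in 3.89% of cells, where the product of their separate shares gives 3.74%, a ratio of 1.04. The ratio for this pair was 1.20, 1.40, 2.24 and 5.40 in the following libraries to E16.5 proximal, and 3.78 in the distal one. The share of Scx cells was lower at late stages, which raises the ceiling of this ratio. The phi coefficient (the correlation of 2 yes-or-no values) of the pair was 0.12 at E13.5, 0.15 at E14.5, 0.24 proximally and 0.20 distally. Late in the series a cell with Mkx was thus far more often a cell with Scx than other cells were: Scx was found in 51.5% of Mkx cells and 8.32% of the others at E16.5 proximal, against 39.4% and 37.8% at E11.5. Mkx was nonetheless met in a minority of Scx cells throughout, between 10.2 and 23.5% of them.

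Scx and Tnmd drew together in the same way. Among cells with a Tnmd UMI, Scx was met in 7 of 14 at E11.5, and in 54.8, 51.6, 48.9 and 42.0% from E12.5 to E16.5 proximal and 47.9% in the distal library. Among cells without Tnmd, the same share went from 37.9% through 37.4, 28.7 and 12.4% to 2.61% at E16.5 proximal and 4.88% distally. Among Tnmd cells the share thus differed less between stages than among the others, but these cells held more Tnmd at late stages. At a fixed level of 1 Tnmd UMI the Scx share was 48.1% at E13.5 (38.4 to 58.0%), 33.9% at E14.5 and 63 of 575 cells proximally, and at 2 to 4 UMIs it was 57.1, 55.3 and 34.3%. Cells with 5 or more Tnmd UMIs numbered 2, 348 and 848 in these libraries. Of the 1005 epithelial-marker cells of the proximal library, 20 had 1 Tnmd UMI and 20 had 2 to 4. The part of background in the low classes was not tested. Seen from the other side, 0.583% of Scx cells held a Tnmd UMI at E11.5, 4.57% at E13.5 and 37.0% at E14.5, then 77.4% in the proximal library (819 of 1058) and 54.1% in the distal one (434 of 802).

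Epithelial-marker cells, which should lack these genes, give a background share, in which free RNA and doublets were not told apart. At E16.5 proximal 1.69% of them had a Scx UMI and 4.88% a Tnmd UMI at 3000 UMIs, with a median of 35673 UMIs in the intact cells against 18473 over the library. The 2.61% of Tnmd-negative cells with Scx (2.29 to 2.96%) overlaps that level for Scx (0.988 to 2.69%). Without epithelial- and cartilage-marker cells the share was 1.61% (117 of 7253 cells), and in cartilage-marker cells as a whole 19.1% had a Scx UMI. Of the Tnmd cells of this library, 49 of 1948 carried epithelial markers. Requiring 2 UMIs of each gene in unthinned cells, the share of Tnmd cells with Scx was 51.4%, against 3.15% of the other cells.

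**Figure D2:**
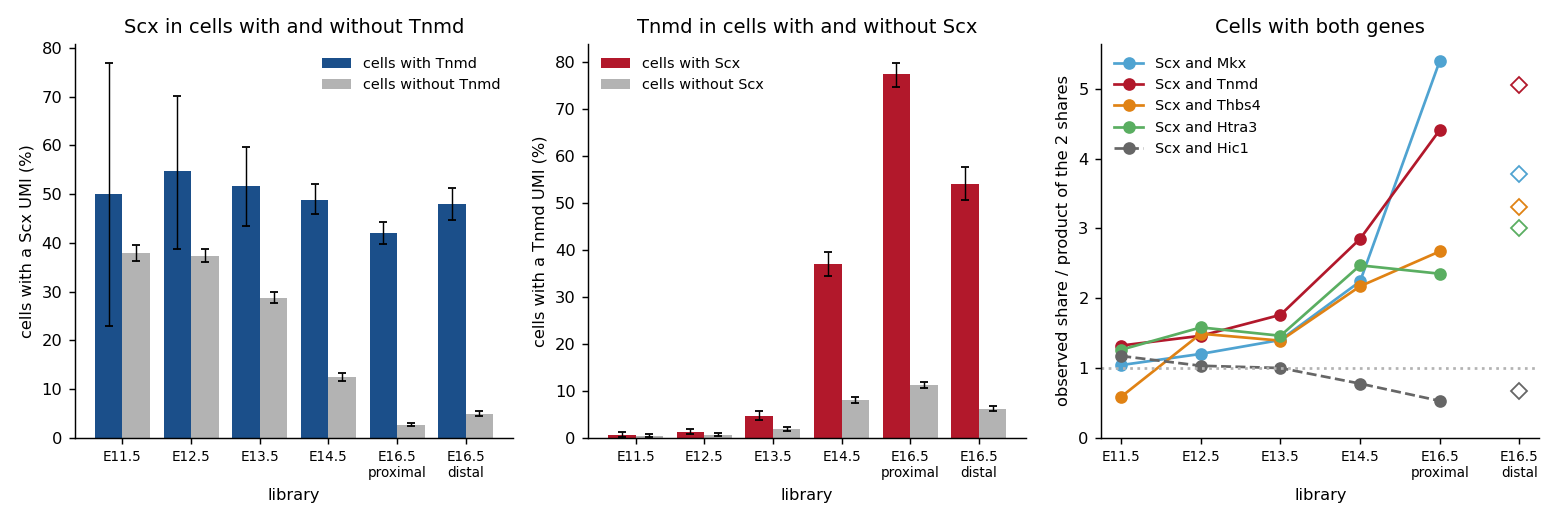
Left and middle, percent of cells with a Scx UMI in cells with and without Tnmd, and with a Tnmd UMI in cells with and without Scx, per sorted library at 3000 UMIs, with exact 95% binomial intervals. Right, observed share of cells with both genes divided by the product of the separate shares (1, dotted, if independent), with circles for the time course and open diamonds for E16.5 distal. The ceiling of this ratio is higher where the separate shares are lower. Scx stays in 42.0 to 54.8% of Tnmd cells while its share in the others goes to 2.61%, and the pair of Scx and Hic1 goes below 1.

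The effectors were also met together, with Thbs4 and Htra3 the least close of their 3 pairs at E16.5. Tnmd with Thbs4 was seen in 8.09% of cells at E16.5 proximal (2.49 times the product of shares), Tnmd with Htra3 in 6.01% (2.09 times) and Thbs4 with Htra3 in 5.24% (1.73 times). In the distal library these ratios were 3.65, 3.12 and 2.34, but the separate shares were lower there, which raises the ceiling of the ratio. The phi coefficient was 0.33 proximally and 0.31 distally for Tnmd with Thbs4. It was 0.22 and 0.27 for Tnmd with Htra3, and 0.15 and 0.16 for Thbs4 with Htra3. At E16.5 proximal 8.55% of cells held a UMI of Thbs4 alone of the 5 genes and 8.52% one of Htra3 alone. Epithelial-marker cells of this library had a Thbs4 UMI in 3.88% and a Htra3 UMI in 2.99% of cases. Scx alone was met in 33.2% of cells at E11.5 and in 1.51% at E16.5 proximal. Cells with all 5 genes numbered 0, 0, 4, 31 and 63 from E11.5 to E16.5 proximal and 33 distally, at most 0.567% of a library.

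Hic1 itself, the gene behind the label, parted from the regulators over time. Scx and Hic1 were met together 1.17 times as often as the product of shares at E11.5, and 1.03, 0.998, 0.774 and 0.527 times at the following stages, with 0.673 distally. For Mkx and Hic1 the ratio was 1.29 at E11.5, 0.583 at E16.5 proximal and 0.343 distally. Summed Hic1 was at 22.0 to 38.0 CPM in all sorted libraries, so its level varied far less than those of the 5 genes. Sox9, a transcription factor of cartilage and of progenitors at tendon attachments, stayed between 0.918 and 1.31 times the product of shares with Scx in all 6 sorted libraries.

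The number of Tnmd UMIs in a cell ordered the other 4 genes. At E16.5 proximal, cells with 0, 1, 2 to 4 and 5 or more Tnmd UMIs at equal depth (9161, 575, 525 and 848 cells) held Scx in 2.61% of cases, then in 63 of the 575, 34.3% and 67.9%. Thbs4 was met in 12.6, 22.4, 36.8 and 68.0%, Htra3 in 12.6, 18.1, 25.9 and 50.5%, and Mkx in 1.19, 2.43, 6.48 and 17.9%. The same order held distally, where Scx was met in 4.88, 20.8, 48.9 and 67.3% and Mkx in 3.38, 4.38, 15.3 and 28.4%. At E14.5 Scx levelled off at 55.3 and 57.2% in the 2 upper classes, whose intervals overlapped (50.2 to 60.3% and 51.8 to 62.4%), while Htra3 went from 36.7 to 61.8%. In the class with 5 or more Tnmd UMIs, Htra3 was met in 61.8% of E14.5 cells, in 50.5% of proximal and in 53.0% of distal E16.5 cells. Thbs4 went the other way, from 38.5% at E14.5 to 68.0% proximally and 56.8% distally. Median depth in the intact cells was lower with more Tnmd at E16.5 proximal (18937 to 15486.5 UMIs) and higher with more Tnmd at E14.5 (14119 to 18113.5 UMIs).

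**Figure D3:**
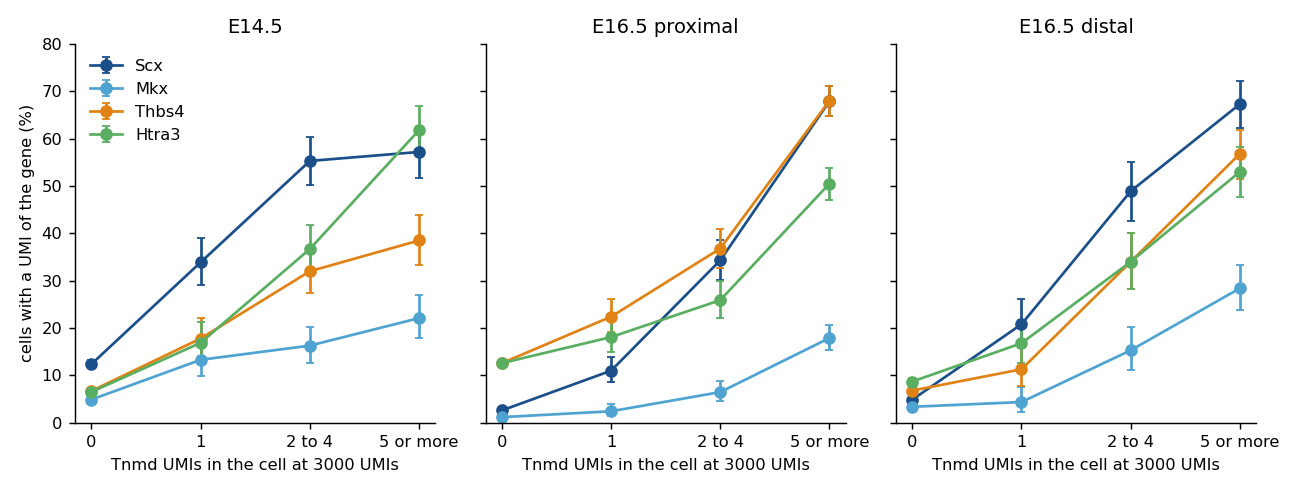
Percent of cells with a UMI of Scx, Mkx, Thbs4 or Htra3, by the number of Tnmd UMIs in the same cell after thinning to 3000 UMIs, at E14.5 and in both E16.5 libraries, with exact 95% binomial intervals. All 4 genes are met more often in cells with more Tnmd, and Scx goes from 2.61 to 67.9% at E16.5 proximal.

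Cells with both Scx and Tnmd were set against cells with neither, for genes other than these. At E14.5 (533 against 6386 cells), Mkx was at 90.3 against 12.2 CPM, Thbs4 at 375 against 37.0 and Htra3 at 350 against 23.2. All 3 were higher by 2-fold or more, where 1.92% of 10153 genes were higher and 3.78% lower. At E16.5 proximal (819 against 8922 cells), Mkx was at 71.1 against 3.30 CPM, Thbs4 at 529 against 54.1 and Htra3 at 261 against 46.9, with 3.28% of 10141 genes higher and 7.89% lower. At E16.5 distal (434 against 7173 cells), Mkx was at 95.0 against 9.61 CPM, Thbs4 at 470 against 43.1 and Htra3 at 312 against 30.1, with 2.57% of 10195 genes higher and 6.69% lower. The remaining 3 members were thus higher in every one of the 3 libraries, by 5.48-fold to 16.8-fold on the ratio of CPM + 1. Htra3 had the lowest of these ratios at E16.5 proximal and the highest of its own at E14.5, 14.5-fold. The intact double-positive cells had a median of 15560 UMIs at E16.5 proximal against 19034.5 in cells with neither, and 18247 against 14208.5 at E14.5 (the part of depth in these CPM differences was not tested).

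The double-positive cells also stood apart in tendon matrix and in a few regulators. At E16.5 proximal 11 of 26 tested matrix genes were higher and 4 lower, led by Cilp (143 against 2.41 CPM), a protein of the intermediate layer of cartilage, then the proteoglycan Kera (290 against 37.4 CPM), Cilp2 (15.9 against 1.51 CPM) and Fmod (330 against 51.1 CPM). At E14.5 10 of 22 were higher and 2 lower, and at E16.5 distal 7 of 26 were higher and 4 lower, with Cilp and Fmod having the highest ratios in both. Lum, another leucine-rich proteoglycan, was lower in all 3 libraries, at 167 against 689 CPM, 344 against 895 CPM and 204 against 1121 CPM. Of the regulators, 2 of 9 tested were higher at E14.5, 4 of 11 proximally and 4 of 11 distally. The only lower one was Sox9 in the distal library (32.2 against 80.2 CPM). Eya2 and Six2 were higher in the double-positive cells of all 3 libraries. Eya2 was at 68.6 against 16.4 CPM in E14.5 cells, 36.2 against 8.99 proximally and 18.4 against 2.92 distally. Among the signals 2 of 17 were higher and 3 lower at E14.5, 4 of 17 and 1 proximally, and 2 of 16 and 2 distally. Etv4, a target of FGF, was higher in all 3 libraries (24.7 against 6.40 CPM at E16.5 proximal), and Nog was lower in all 3. Fgf8 was higher at E14.5 and in the proximal library (11.8 against 0.514 CPM), and Fgfr2 was lower at E14.5 and distally. Etv5, Dusp6, Spry1 and Spry2 of the same list were within 2-fold in all 3. Of the paralogs Htra1 and Thbs2 were higher in all 3, Htra1 at 789 against 153 CPM at E16.5 proximal, and Lect1 was lower in all 3 (57.3 against 191 CPM). These cells were chosen for Scx and Tnmd only. The gene lists were chosen with earlier results of these data known. Cilp and Fmod are also among the genes most like both Scx and Tnmd in detection, as given below. The differences in the lists are therefore no independent check.

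Classes of cells were then formed by markers without the members, a cell counting for a class with 3 or more of its markers at 3000 UMIs. Cells with 3 or more of 7 tenocyte markers (Fmod, Kera, Chad, Cilp2, Cpxm2, Ptgis and Ptx4) numbered 320 at E16.5 proximal, of which 280 had exactly 3 and so lay at the limit. Chad is also made by cartilage, and it was at 9.75 CPM in cells with Scx and Tnmd of this library against 20.5 CPM in cells with neither. The class carried a median of 2 cartilage markers per cell proximally and 0 distally. The list was chosen with earlier results of these data known, and Fmod and Kera are among the genes most like members in detection, as given below. High levels of the members in this class are therefore no independent check. At E16.5 proximal the class held every member at its highest level among the classes compared: Scx at 386 CPM, Mkx at 80.1, Tnmd at 3523, Thbs4 at 441 and Htra3 at 296 CPM. The 237 such cells of the distal library held them at 318, 100, 2347, 372 and 232 CPM. These cells made up 2.88 and 2.81% of the libraries and held 17.3 and 14.1% of all Scx UMIs, and cells with exactly 2 of its markers numbered 999 and 735.

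In the other classes, which were formed separately and can share cells with the tenocyte-marker class, the 5 genes parted. Cartilage-marker cells of E16.5 proximal held Scx at 80.6 CPM and Tnmd at 355 CPM, above the library's 49.6 and 304 CPM, whereas Thbs4 and Htra3 were below theirs at 43.6 and 41.7 CPM. Without epithelial-marker cells the proximal library held Scx at 57.5 and Tnmd at 351 CPM. Distal cartilage-marker cells held Scx at 54.4, Tnmd at 157, Thbs4 at 28.9 and Htra3 at 26.4 CPM, all 4 below the 63.9, 202, 75.9 and 55.4 CPM of that library. Mkx was instead higher in cartilage-marker cells than in the rest in both libraries. Without epithelial-marker cells it was at 10.9 CPM proximally and 18.3 distally, and without cartilage-marker cells as well at 9.78 and 18.0 CPM. At E16.5 proximal, fibroblast-marker cells held little Scx (5.64 CPM) and Mkx (2.39 CPM), in the range of the epithelial-marker cells of that library (7.35 and 1.78 CPM). They held Htra3 at 129 CPM, in 29.2% of cells, nearly 2-fold the level of the whole library, and Thbs4 at 76.7 CPM. In the distal library the order was the other way round, with Thbs4 at 122 CPM in fibroblast-marker cells, above the 75.9 CPM of all cells, and Htra3 at 51.0 CPM, near the 55.4 CPM of all cells. Fibroblast-marker cells were 18.3% of cells proximally and 17.4% distally. Of all Htra3 UMIs they held 36.5% proximally and 17.9% distally, of all Thbs4 UMIs 14.5% and 31.3%, and of all Scx UMIs 2.13% and 1.75%.

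Cells with dermal fibroblast markers held Tnmd at 52.0 CPM at E16.5 proximal and those with pericyte markers at 54.2 CPM, next to 53.6 CPM in the epithelial-marker cells. At equal depth 10.5% of the pericyte-marker cells had a Tnmd UMI (6.23 to 16.3%), above the 4.88% of the epithelial-marker cells (3.63 to 6.39%). In the distal library the 70 pericyte-marker cells held Tnmd at 105 CPM, in 17.1% of cells, against 6.31 CPM in 83 epithelial-marker cells. Cells with 3 or more muscle fibre markers numbered 112 at E16.5 proximal and held Thbs4 at 102 CPM, in 21.4% of cells, with Scx in 2.68%. Of the Thbs4 cells 1.17% carried those markers (0.750 to 1.73%) and of the other cells 0.972%. Mitotic-marker cells of the distal library held Scx at 120 CPM against 63.9 CPM over all cells, and Mkx at 24.8 against 18.1 CPM. Proximally the same class held Scx at 65.1 against 49.6 CPM and Mkx at 9.60 against 9.49 CPM.

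**Figure D4:**
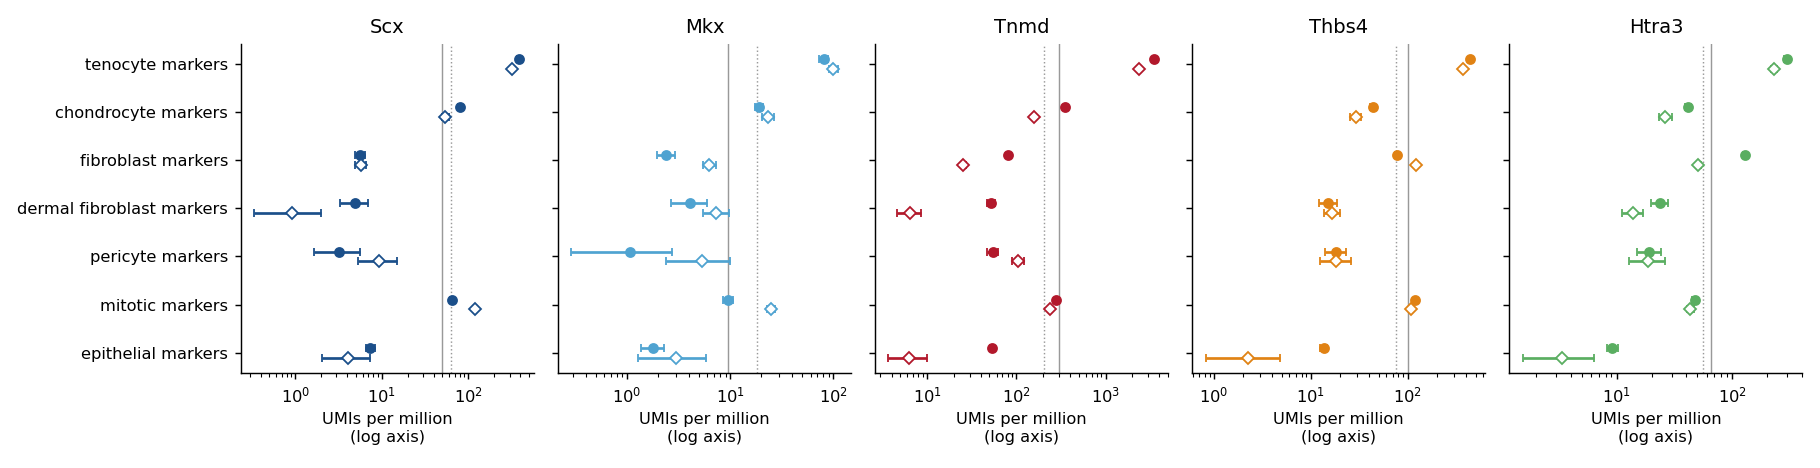
CPM of each gene (log axis, 95% Poisson intervals) in cells with 3 or more markers of a class, at E16.5 proximal (filled circles) and E16.5 distal (open diamonds). Vertical lines give the level of all cells, solid for proximal and dotted for distal. Tenocyte-marker cells are highest for all 5 genes (Tnmd at 3523 and 2347 CPM), and fibroblast-marker cells are near the epithelial-marker cells for Scx but not for Thbs4 and Htra3.

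The genes most like each member in detection were ranked over 10121 genes at E16.5, by the smaller of the phi coefficients (the correlation of 2 yes-or-no values, here over cells at 3000 UMIs) in the 2 segments. Scx and Tnmd were among the nearest 5 genes of every other member, and Mkx was among the nearest 5 of none. For Scx the 5 nearest genes were Tnmd (0.45), Fmod (0.32), Cilp (0.30), Col11a1 (0.30) and Thbs4 (0.25). For Tnmd they were Scx (0.45), Cilp (0.32), Col11a1 (0.31), Thbs4 (0.31) and Fmod (0.29). Mkx had Scx and Tnmd first, both at 0.20, then Fmod (0.19), Col11a1 (0.16) and Cilp (0.13). Thbs4 had Tnmd (0.31), Scx (0.25), Cilp (0.23), Kera (0.17) and Htra3 (0.15). Htra3, whose coefficients were the lowest of the effectors, had Tnmd (0.22), Scx (0.19), Abi3bp (0.16), Thbs4 (0.15) and Cilp (0.14). The coefficient of Scx with Tnmd was 0.33 at E14.5 and 0.08 at E13.5. Cells of a library share depth and free RNA, and rarely counted genes such as Mkx give low coefficients, so these values describe the libraries only.

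The last comparison set the distal E16.5 segment against the proximal one. No member passed 2-fold in either direction, where 4.42% of 10352 genes were higher distally and 4.39% lower. Mkx was the nearest to it, at 18.1 CPM distally and 9.49 CPM proximally, a ratio of 1.90 (1.80 to 2.01) in CPM and 1.82 on the ratio of CPM + 1. Scx was at 63.9 against 49.6 CPM, a ratio of 1.29 (1.26 to 1.33). The 3 effectors were lower distally, Tnmd at 202 against 304 CPM (ratio 0.666), Thbs4 at 75.9 against 99.2 CPM (0.765) and Htra3 at 55.4 against 66.1 CPM (0.838). Regulators and effectors therefore lay on opposite sides of 1 when all UMIs were summed.

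For Scx that side depended on how cells were weighted. With every cell thinned to 3000 UMIs the ratio was 0.945 (0.885 to 1.01), and the share of cells with Scx was 9.49% distally and 9.52% proximally. In tenocyte-marker cells it was 0.826 (0.771 to 0.884), in a class whose cartilage markers differed between segments as given above. Mkx stayed higher distally under each of these, at 1.82 (1.58 to 2.09) thinned and 1.25 (1.09 to 1.43) in tenocyte-marker cells. In cells with both Scx and Tnmd the Mkx ratio was 1.34 (1.22 to 1.46). Tnmd stayed lower distally, at 0.498 (0.482 to 0.514) with thinned cells, which passes 2-fold, and at 0.666 (0.650 to 0.682) in tenocyte-marker cells.

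Htra3 was lower distally over all cells, but in cells with both Scx and Tnmd it was higher, at 312 against 261 CPM, a ratio of 1.19 (1.14 to 1.25). In tenocyte-marker cells it was lower, at 0.784 (0.724 to 0.848), so the side for Htra3 depended on how tendon cells were chosen. Thbs4 was lower in all 3 views, at 0.888 (0.855 to 0.923) in double-positive and 0.843 (0.791 to 0.898) in tenocyte-marker cells. Double-positive cells were also fewer distally, at 5.14% of cells against 7.37% at equal depth. Epithelial markers summed to 6665 CPM proximally and 834 CPM distally, and cartilage markers to 4263 and 1108 CPM. Without both kinds of cells the ratios were 1.21 for Scx, 1.84 for Mkx, 0.599 for Tnmd, 0.643 for Thbs4 and 0.715 for Htra3.

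Around them, 3 of 16 tested signal genes were higher distally and none lower, Bmp4 (49.3 against 15.0 CPM), the receptor Fgfr1 (244 against 113 CPM) and Tgfb2 (138 against 64.3 CPM). Of 10 regulators 2 were higher, Egr1 (161 against 51.2 CPM) and Tcf4, and 2 lower, Eya2 (4.25 against 11.1 CPM) and Six2. Of 25 matrix genes Tnc, a glycoprotein of tendon and its attachments, was higher (86.9 against 24.3 CPM), and Comp, a thrombospondin like Thbs4, and Chad were lower (53.3 against 140 CPM and 8.79 against 19.9 CPM). Of 7 paralogs none was higher, and Comp and Lect1 were lower. The distal library was counted with another version of Cell Ranger, which cannot be told apart from the segment.

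**Figure D5:**
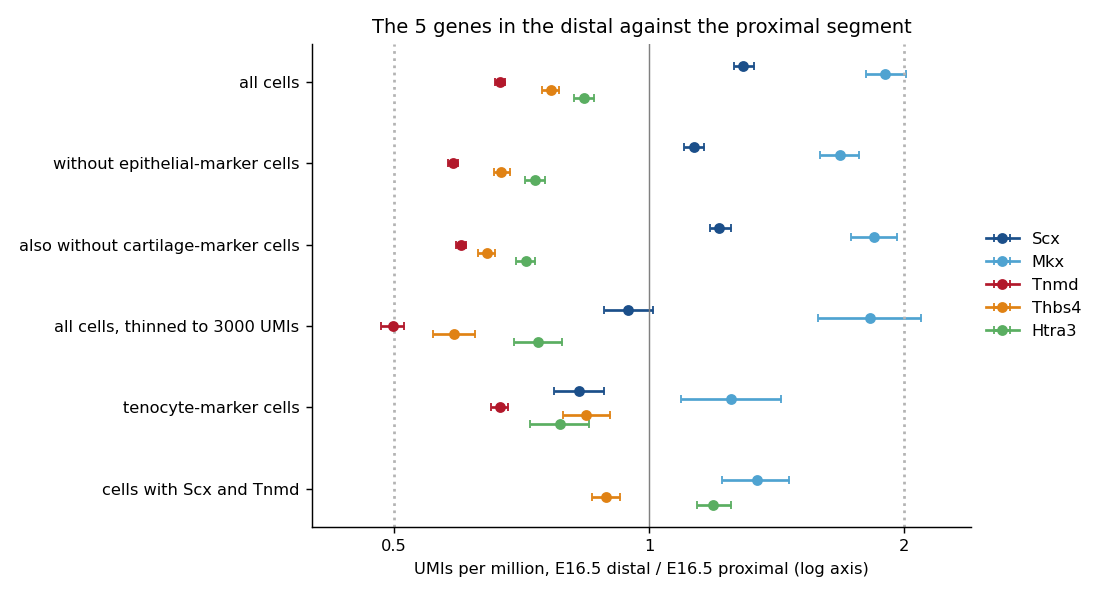
Ratio of CPM at E16.5 distal to E16.5 proximal (log axis) for the 5 genes in 6 choices of cells, with exact 95% counting intervals. The solid line is 1 and the dotted lines 0.5 and 2. Mkx lies right of 1 and Tnmd and Thbs4 left of it in every choice shown for them, while Scx goes from 1.29 in all cells to 0.826 in tenocyte-marker cells, which held more cartilage markers proximally.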

How the data were processed

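The 8 libraries were deposited as gene by barcode matrices of UMI counts, which the authors made with Cell Ranger from 10x 3′ libraries aligned to a modified mm10 genome. Matrix headers named version 3.0.2 for 5 sorted libraries and 6.0.1 for E16.5 distal, and none was named for the whole limb libraries. The study's reporting summary names another version for its single-cell data without tying it to libraries. Each 3′ UMI marks a molecule whatever the transcript length, and levels are compared within a gene. Scx lies within Bop1 on the opposite strand and Mkx overlaps an unnamed gene model (AC148004.2) on its own strand, so their UMIs depend on how overlapping reads were assigned.

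Barcodes with at least 3000 UMIs and at most 10% mitochondrial UMIs were kept (74.2 to 98.6% of each library). The study's removal of epithelial clusters was not repeated and stands as an alternative. No doublet caller was run, and leaving out the 10% of cells with the most UMIs was an alternative. CPM is the summed UMIs of a gene per 1000000 UMIs of the kept cells, with exact Poisson intervals, and shares carry exact Clopper-Pearson intervals. Ratios between libraries used CPM + 1 and were called at 2-fold with 5 CPM or more in the higher library. For shares of cells each cell was thinned at random to 3000 UMIs. Cell classes rest on counts of at least 3 detected markers, with no clustering.

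Sorted and whole limb libraries of E11.5 were compared by edgeR 4.0.16 (quasi-likelihood test, TMM, filterByExpr, Benjamini-Hochberg at 0.05, R 4.3.3) on counts summed per library. Cells with 3 or more markers of epithelial, myogenic, endothelial, immune, erythroid or glial cells were left out of it, 0.158% of the sorted and 2.18 and 1.90% of the whole limb cells. It was tested on simulated data. DESeq2 1.42.0 and limma 3.58.1 were alternatives. Groups came from the sample labels. Other groups had 1 library each and got no test. The members, gene lists and markers were chosen with earlier results of these data known. Named genes are the 5 members, at most 4 genes of each list per comparison by size of ratio, and the 5 nearest genes of each member, and list genes named beyond these were chosen after their values were seen. In the double-positive cells Lum, Sox9, Nog, Etv5, Dusp6, Spry1 and Spry2 were named that way. Of the listed paralogs Cnmd is carried under its older symbol Lect1. Values of 1 other listed gene are not reported here.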

Additional observations from a re-analysis of the deposited data

How the results depend on the processing

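At E11.5, 18 of 20 tested values of the members kept their direction and their call under the alternatives. Thbs4 lost its call with DESeq2 and without a filter on low counts. Of 133 ratios between single libraries, which have no test, 120 kept their direction and their side of 2-fold. Between segments Scx, at 0.36 on the log2 scale distal over proximal, turned to -0.08 with thinned cells and -0.28 in tenocyte-marker cells, and Htra3, at -0.25, turned to 0.25 in cells with Scx and Tnmd. Tnmd between segments was past 2-fold with thinned cells (ratio 0.498). Genes called at E11.5 numbered 8091, against 4943 with DESeq2, 6384 with limma-voom, 5302 without the filter and 8075 with all kept cells. Without 1 or the other whole limb library, the log2 difference was 1.80 to 1.83 for Scx, 2.07 to 2.15 for Mkx, 2.26 to 2.50 for Tnmd, 0.83 to 1.38 for Thbs4 and 3.11 to 3.48 for Htra3. That leaves 1 library against 1 with no residual degrees of freedom, so these are values with no test. The 5 members past 2-fold from E11.5 to E16.5 proximal were 3 within the v2 kit and 2 within the v3 kit, and the cause was not tested. Within the v2 kit Mkx was on the other side, at 0.86 on the log2 scale, and Scx was within 2-fold at -0.18. Within the v3 kit Tnmd, Thbs4 and Htra3 were within 2-fold, at 0.49, 0.30 and 0.04. With thinned cells Tnmd was past 2-fold at that step, at 1.07, and Scx was not, at -0.65 against -1.20. Thinning also took Thbs4 from E13.5 to E14.5 (0.81) and Htra3 from E11.5 to E12.5 (0.89) to within 2-fold, so that 1 member passed at the latter step, against 2. With thinned cells 1 member, Tnmd, passed 2-fold between segments, against 0. The share of Tnmd cells with Scx at E16.5 proximal, 42.0%, was 45.1% without thinning, 36.1% at 2000 UMIs and 51.4% with at least 2 UMIs of each. The spans within a kit, the thinned single steps, the E16.5 libraries summed or exchanged, and the segment in tenocyte-marker or double-positive cells were chosen after seeing the data. No paired analysis was possible because only the whole limb group has more than 1 library. At E11.5, 40 UMIs of Tnmd and of Thbs4 limit what can be said of either.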
